A study of Homo sapiens with 4 samples.

Results

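The human globin genes of the beta cluster on chromosome 11 and the alpha cluster on chromosome 16 were followed by name: HBE1, HBG2, HBG1, HBD and HBB in the first, and HBZ, HBM, HBA2, HBA1 and HBQ1 in the second. These 10 genes, out of 28103 in the count table, were all present, and 9 had enough counts to be tested. Haemoglobin pairs alpha-like with beta-like chains, and each cluster holds its genes in the order in which they are used during development. HBZ and HBE1 encode the embryonic zeta and epsilon chains, HBG1 and HBG2 the fetal gamma chains, HBB and HBD the adult beta and delta chains, and HBA1 and HBA2 the alpha chains used from fetal life on. A distal control region activates each cluster, and the shift from gamma to beta chains around birth is enforced by repressors such as BCL11A.

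HEL is a human erythroleukaemia line known for making embryonic and fetal rather than adult beta-like globin, and the labels give its cell type as human erythroblast. Poly(A) RNA was sequenced from 2 libraries of cells labelled Ctrl, with genotype WT, and from 2 libraries of cells labelled AFF4 knockdown. All were grown in RPMI-1640 with fetal bovine serum, and the sources used here do not say how AFF4 was depleted. AFF4 is the scaffold of the super elongation complex, which helps paused RNA polymerase II enter productive elongation, and the series title names that step as its subject.

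The libraries held 14903878 to 19129008 gene counts. AFF4 itself had 1650 and 1033 counts in Ctrl and 338 and 319 after AFF4 knockdown, or -2.07 ± 0.19 (SE) as a log2 fold change (adjusted p = 0.0268 by the edgeR quasi-likelihood test, and 0.0552 where only genes of at least 5 CPM in 2 libraries were tested). Across 13572 tested genes, 47 were called higher and 40 lower at an adjusted p under 0.05, and the median log2 fold change was -0.01. The Ctrl libraries differed from each other far more than the knockdown libraries did. The chi-square of their counts per degree of freedom was 43.5 against 2.49, and their differences followed the GC content of the transcripts, which bears on the alpha cluster. Nothing in the labels says that the replicates were separate cultures, so p-values measure only how far these libraries scatter, and that scatter may be technical.

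The globin genes did not share one direction. HBG1 was the 1 globin gene called, and it fell; over all genes 0.295% of tested genes were called lower. By edgeR, 0 of the 9 tested globin genes were called higher, against 0.346% of all tested genes; DESeq2 and limma-voom also called 0 higher, and 1 (HBD) had an unadjusted p under 0.05 in edgeR. Of the tested genes, HBG1, HBG2, HBE1 and HBZ were lower in both knockdown libraries than in either Ctrl library, HBD was higher in both, and HBB, HBA1, HBA2 and HBQ1 overlapped. Such separation was common: 23% of all tested genes were separated on the lower side and 23.1% on the higher side. The median log2 fold change of the 9 tested globin genes was -0.23, against -0.01 over all tested genes. In bulk RNA, fewer globin-expressing cells and less globin RNA per cell cannot be told apart.

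**Figure D1:**
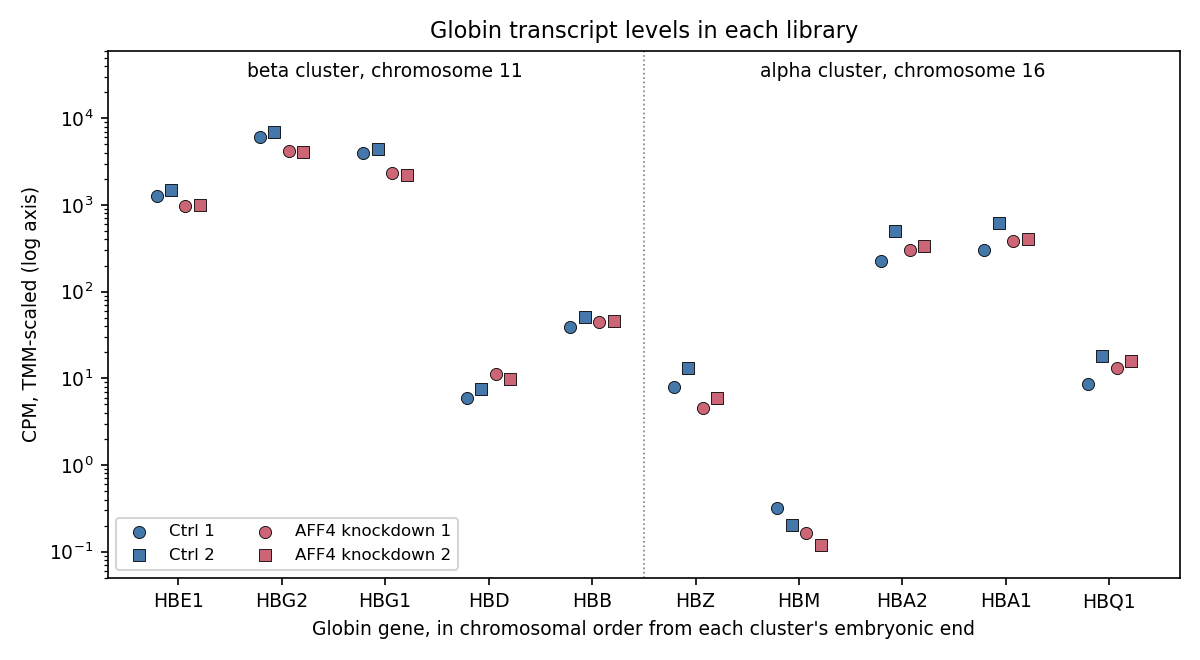
CPM (TMM-scaled, log axis) of the 10 globin genes in each library, beta cluster on the left and alpha cluster on the right; blue marks are Ctrl and red marks AFF4 knockdown, circles replicate 1 and squares replicate 2. The fetal genes HBG2 and HBG1 are highest and sit lower in both knockdown libraries, HBD sits higher, and for HBA1 and HBA2 the knockdown marks lie between the Ctrl marks.

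The fetal gamma genes were the most abundant globins and showed the clearest decrease. HBG1 (chromosome 11, 5248079 to 5249859, hg38, minus strand) stood at 3932 and 4397 CPM (counts scaled to library size, with TMM factors) in Ctrl and at 2341 and 2242 after AFF4 knockdown. The knockdown libraries were close together and both well under the Ctrl pair. Mean HBG1 CPM went from 4165 ± 329 (SD, n = 2) to 2292 ± 69.7 (SD, n = 2). That is a 1.82-fold lower level, with a log2 fold change of -0.86 ± 0.12 (SE; 95% interval -1.14 to -0.58; edgeR quasi-likelihood, adjusted p = 0.0394). The call was lost when only genes with at least 5 CPM in at least 2 libraries were tested (edgeR adjusted p = 0.0686), without knockdown replicate 1 (0.231) and without knockdown replicate 2 (0.337). The HBG1 log2 fold change lay between -0.94 and -0.78 under the 14 alternatives that give it a value of its own.

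HBG2, the neighbouring gamma gene (main transcript 5253190 to 5254811, minus strand), stood at 6109 and 7003 CPM in Ctrl and at 4138 and 4044 after AFF4 knockdown. As with HBG1, the groups did not overlap and the knockdown pair was the tighter one. Its log2 fold change was -0.68 ± 0.12 (SE; 95% interval -0.96 to -0.40), a 1.6-fold lower mean, and the edgeR adjusted p of 0.0641 missed the threshold. DESeq2 called HBG2 lower (adjusted p = 0.0145), as it did 1.64% of all tested genes. Ranked by CPM among all genes, HBG2 went from rank 2 in Ctrl to rank 5 in the knockdown, and HBG1 from rank 7 to rank 20.

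The gamma genes are near-identical copies, so the split of reads between them depends on few bases. In the GENCODE transcripts their coding sequences (441 bases without the stop codon) were 99.55% identical and differed at 2 positions, C227T and C410G, counted from the A of the start codon with the HBG1 base first. The textbook names A-gamma for HBG1 and G-gamma for HBG2 refer to an alanine and a glycine at one residue of the chain. The stretches around both differences are printed to show how little of the coding sequence tells the genes apart, with the differing base in capitals.
HBG1, positions 207 to 247: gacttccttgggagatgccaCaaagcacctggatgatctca
HBG2, positions 207 to 247: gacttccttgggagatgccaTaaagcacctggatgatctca
HBG1, positions 390 to 430: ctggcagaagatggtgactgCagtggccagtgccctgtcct
HBG2, positions 390 to 430: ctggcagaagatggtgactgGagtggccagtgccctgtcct
Of all 50-base windows of the HBG1 transcript, 50.1% also occurred in HBG2, and 39% of the 100-base windows did. The sources used here do not say how reads that fit both copies were counted, so the separate HBG1 and HBG2 values are uncertain. Their sum does not rest on that split: HBG1 and HBG2 added together had a log2 fold change of -0.75 ± 0.11 (SE), and the sum was called lower (edgeR adjusted p = 0.0479). HBG1 made up 39.2% and 38.6% of the gamma counts in Ctrl and 36.1% and 35.7% after AFF4 knockdown. The share was lower in both knockdown libraries (exact permutation test, two-sided p = 0.33, the smallest that 2 against 2 libraries allow).

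HBE1, the embryonic epsilon gene at the far end of the beta cluster (5268352 to 5269945, minus strand), was the third most abundant globin. It stood at 1274 and 1477 CPM in Ctrl and at 978 and 998 after AFF4 knockdown, with no overlap. On the log2 scale the change was -0.48 ± 0.13 (SE; 95% interval -0.78 to -0.17), and it was not called (edgeR adjusted p = 0.152). HBE1 made up 11.3% and 11.5% of the summed HBE1, HBG1 and HBG2 counts in Ctrl and 13.1% and 13.7% after AFF4 knockdown (exact permutation p = 0.33, two-sided). Epsilon transcripts therefore took a larger share of the embryonic and fetal beta-like pool in both knockdown libraries, while their own level was lower.

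HBB, the adult beta gene (5225464 to 5227071, minus strand), was a minor transcript in HEL. Its counts were 736 and 763 in Ctrl and 802 and 778 after AFF4 knockdown, or 39.4 and 51.1 CPM against 44.3 and 46.2. In CPM both knockdown values lay between the Ctrl values. The fitted log2 change was 0.00 ± 0.19 (SE) with a 95% interval from -0.44 to 0.45 (edgeR adjusted p = 0.999). That interval allows a change of either sign of up to about the size fitted for HBE1. The ratio of gamma to beta counts, HBG1 plus HBG2 over HBB, was 254.8 and 223 in Ctrl and 146 and 136 after AFF4 knockdown. The epsilon-to-beta ratio was 32.3 and 28.9 against 22.1 and 21.6. Both ratios were lower in both knockdown libraries (exact permutation p = 0.33 for each, two-sided).

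HBD, the adult delta gene (5232838 to 5234648, minus strand), encodes the beta-like chain of the minor adult haemoglobin. It had 112 and 113 counts in Ctrl and 205 and 166 after AFF4 knockdown, or 6.0 and 7.56 CPM against 11.3 and 9.86. Both knockdown libraries were above both Ctrl libraries. The log2 fold change was 0.65 ± 0.22 (SE; 95% interval 0.13 to 1.17; unadjusted p = 0.0212), and HBD was not called (edgeR adjusted p = 0.238). Of the tested globin genes, 4 lower and 1 higher had an unadjusted p under 0.05 in edgeR, against 8.19% and 6.79% of all tested genes. HBB and HBD coding sequences were 93% identical, with 31 differences, and 2.94% of the 50-base windows of HBB occurred in HBD. The HBD counts are low beside those of its neighbours.

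The 250 bases upstream of HBD are printed because HBD was the globin gene that stood apart in the opposite direction. They lie upstream of the RefSeq transcription start (GRCh38.p14, chr11:5234484-5234733, minus strand), with the matches to the searched letters in capitals. The GENCODE transcript whose coordinates are given above starts at 5234648, inside this window. Much of the window is therefore part of that transcript.
HBD upstream: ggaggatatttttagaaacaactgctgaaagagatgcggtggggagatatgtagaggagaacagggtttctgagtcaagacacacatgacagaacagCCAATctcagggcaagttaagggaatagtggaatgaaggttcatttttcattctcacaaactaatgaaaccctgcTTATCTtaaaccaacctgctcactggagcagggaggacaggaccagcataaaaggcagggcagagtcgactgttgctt
Searched on both strands, CCAAT (the CCAAT box) occurred once, starting at -153 from the RefSeq transcription start. AGATAA (the core letters of a GATA factor site) occurred once on the opposite strand, at -78. Both matches lie within the GENCODE transcript. CCAAT was present in 32% of 35116 promoter windows of the same length and AGATAA in 9.17%. The letters CACCC (54.7% of windows), TGACC (32.6%), TATAAA (10.7%) and AATAAA (16%) were not found in this window. Such matches describe the sequence only.

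Of the 4 tested genes of the alpha cluster, HBZ had separated groups and HBA1, HBA2 and HBQ1 overlapped. HBZ, the embryonic zeta gene (chromosome 16, 152687 to 154503, plus strand), had 148 and 198 counts in Ctrl and 83 and 100 after AFF4 knockdown. In CPM these were 7.92 and 13.3 against 4.59 and 5.94, lower in both knockdown libraries. The log2 fold change was -1.0 ± 0.30 (SE; 95% interval -1.71 to -0.29; unadjusted p = 0.0122), and HBZ was not called (edgeR adjusted p = 0.185). Without Ctrl replicate 1 the log2 fold change was -1.33, and without Ctrl replicate 2 it was -0.60.

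HBA1 (176680 to 177522) and HBA2 (172876 to 173710), the alpha genes on the plus strand of chromosome 16, were set apart by the spread within Ctrl. HBA1 stood at 299 and 616 CPM in Ctrl and at 379 and 402 after AFF4 knockdown. HBA2 stood at 227 and 495 CPM against 305 and 333. For both genes the knockdown values lay between a low Ctrl 1 and a high Ctrl 2. The log2 fold changes were -0.23 ± 0.30 (SE; 95% interval -0.94 to 0.48; edgeR adjusted p = 0.815) for HBA1 and -0.18 ± 0.32 (SE; 95% interval -0.94 to 0.58; edgeR adjusted p = 0.875) for HBA2. The direction depended on which Ctrl library was kept: without Ctrl 1 the HBA1 value was -0.66 and without Ctrl 2 it was 0.39, and for HBA2 they were -0.63 and 0.49. HBA1 and HBA2 have the same coding sequence (426 bases, 100% identical) and share 81.6% of 50-base windows, so their separate values are uncertain. Summed, HBA1 and HBA2 gave -0.21 ± 0.31 (SE) as log2 fold change, with an edgeR adjusted p of 0.844.

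HBQ1, the theta gene at the end of the alpha cluster (180453 to 181181, plus strand), had 162 and 267 counts in Ctrl and 241 and 269 after AFF4 knockdown. At 8.67 and 17.9 against 13.3 and 16 CPM, the groups overlapped, with Ctrl 1 again the lowest. Its log2 fold change was 0.15 ± 0.34 (SE; 95% interval -0.64 to 0.94; edgeR adjusted p = 0.903), and it was -0.29 without Ctrl 1 and 0.75 without Ctrl 2. HBM, the mu gene (165978 to 166768, plus strand), had 6 and 3 counts in Ctrl and 3 and 2 after AFF4 knockdown. In CPM these were 0.321 and 0.201 against 0.166 and 0.119, lower in both knockdown libraries. HBM was too shallow for a test, and a difference was not detectable at this depth.

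**Figure D2:**
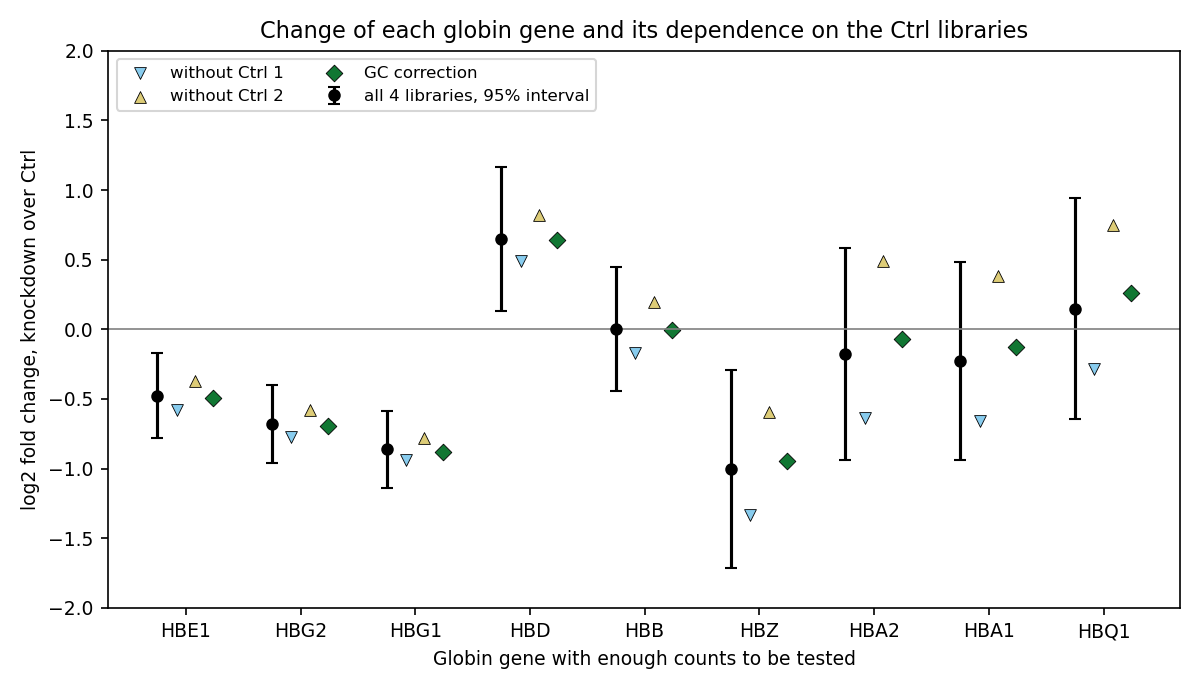
Log2 fold change of the 9 tested globin genes, AFF4 knockdown over Ctrl. Black points with bars are the fit on all 4 libraries with its 95% interval, triangles the fits without Ctrl 1 or Ctrl 2, and green diamonds the fit with GC correction; HBA2, HBA1, HBQ1 and HBB lie on both sides of 0 depending on the Ctrl library left out, and HBG1, HBG2, HBE1, HBZ and HBD do not.

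The difference between the Ctrl libraries ran along the base composition of the transcripts, and the clusters differ in it. Transcript GC content was 47% for HBG1, 51% for HBG2, 51.8% for HBE1, 51.3% for HBB and 49.6% for HBD. In the alpha cluster it was 64.5% for HBA1, 64.4% for HBA2, 65.2% for HBZ and 68.8% for HBQ1. With the tested genes in 5 bins by GC, the median log2 difference of Ctrl 2 minus Ctrl 1 was -0.40 in the lowest bin, -0.08 in the bin that holds the beta-cluster genes and 0.69 in the bin that holds the alpha-cluster genes. HBA1, HBA2 and HBQ1 were higher in Ctrl 2 by 1.04, 1.13 and 1.03, and HBZ by 0.73. The same difference was 0.16 for HBG1, 0.20 for HBG2 and 0.21 for HBE1. Between the knockdown libraries the bin medians ran only from -0.05 to 0.12.

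**Figure D3:**
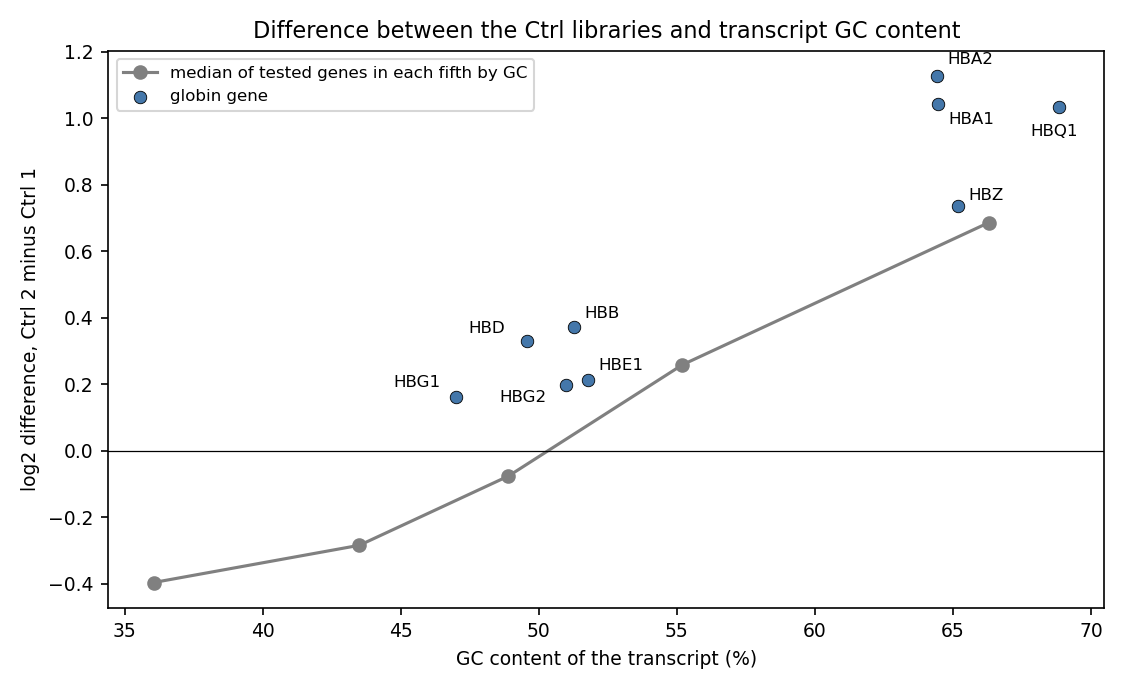
Log2 difference between the Ctrl libraries (Ctrl 2 minus Ctrl 1, vertical axis) against transcript GC content in percent (horizontal axis), for the 9 tested globin genes (blue) and as the median of all tested genes in 5 GC bins (grey line). The alpha-cluster genes sit at the GC-rich end with differences of 0.73 to 1.13, and the beta-cluster genes near the middle with differences of 0.16 to 0.37.

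With a smooth GC trend removed from each library, the globin fold changes moved little and their standard errors shrank. For HBG1 the standard error went from 0.118 to 0.099, and for HBA1 from 0.302 to 0.078. These errors rest on a variance fit shared over all genes, and the spread of each gene within Ctrl was not measured after the correction. The log2 fold change was then -0.88 for HBG1 (edgeR adjusted p = 0.000493), -0.70 for HBG2 (0.000286), -0.49 for HBE1 (0.00101), -0.95 for HBZ (0.00176) and 0.64 for HBD (0.0174), all called. HBA1 (-0.13), HBA2 (-0.07), HBQ1 (0.26) and HBB (-0.01) were not called. Under that correction 15.1% of all tested genes were called lower and 15.6% higher.

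Summed by cluster, the decrease lay in the beta-like genes, whose sum was nearly all HBG1, HBG2 and HBE1 and says little of HBB and HBD. Beta-like globins took 1.11% and 1.30% of all gene counts in Ctrl and 0.757% and 0.743% after AFF4 knockdown. The groups did not overlap (exact permutation p = 0.33, two-sided), and the knockdown pair was the tighter one. The alpha-like globins took 0.0530% and 0.115% in Ctrl and 0.0707% and 0.0766% after AFF4 knockdown, with both knockdown values between the Ctrl values (exact permutation p = 1, two-sided). The exact binomial 95% intervals of these shares, which cover counting error only, were narrow: 1.10% to 1.11% for the beta-like share in Ctrl 1, and 0.0519% to 0.0540% for the alpha-like share. The log2 change of the mean share was -0.68 for the beta-like and -0.19 for the alpha-like genes. Without Ctrl 1 these were -0.79 and -0.64, and without Ctrl 2 they were -0.57 and 0.48, so the direction of the alpha-like sum rested on 1 library.

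**Figure D4:**
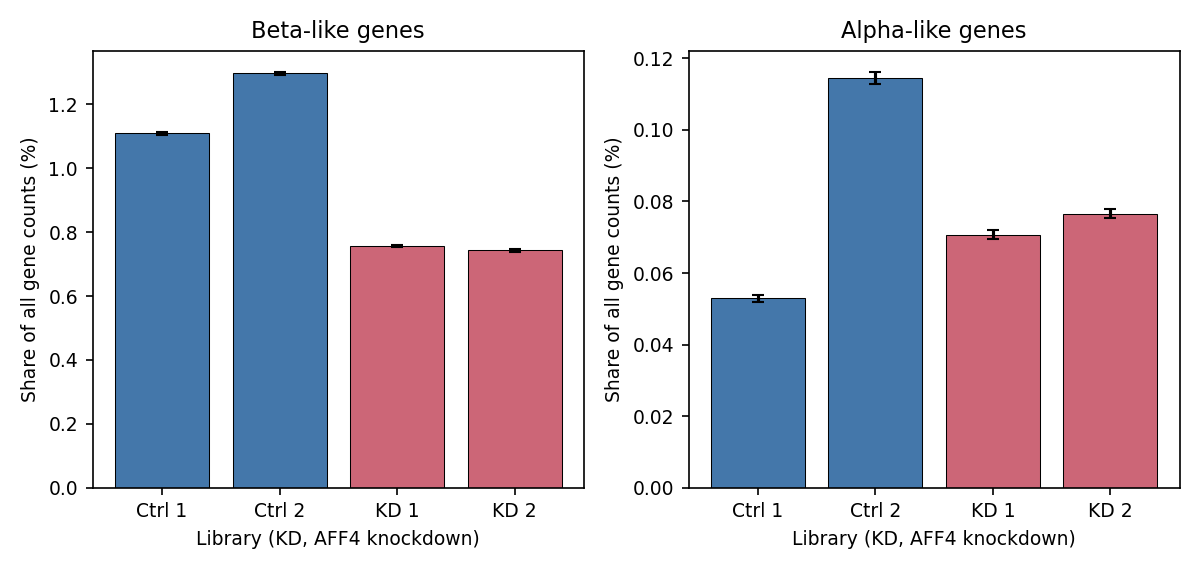
Share of all gene counts (percent) taken by the summed beta-like genes (left) and alpha-like genes (right) in each library; bars start at 0 and error bars are exact binomial 95% intervals, which cover counting error only. The beta-like share is about 1.11% to 1.30% in Ctrl and 0.743% to 0.757% in the knockdown, and the alpha-like share of the knockdown libraries lies between the Ctrl libraries.

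Grouped by developmental stage instead, the embryonic and fetal genes took 1.11% and 1.29% of all counts in Ctrl and 0.752% and 0.737% after AFF4 knockdown. This is not a separate result: in Ctrl 1 that sum was 211483 counts and the beta-like sum 212183, nearly all from HBG1, HBG2 and HBE1 in both. The adult genes, mostly HBA1 and HBA2, took 0.0558% and 0.117% against 0.0745% and 0.0800%, with overlap. Of all globin counts, the alpha-like genes made up 4.56% and 8.12% in Ctrl and 8.55% and 9.35% after AFF4 knockdown. The ratio of beta-like to alpha-like counts was 20.9 in Ctrl 1, 11.3 in Ctrl 2, and 10.7 and 9.70 in the knockdown libraries. Both knockdown values were below both Ctrl values, but Ctrl 2 was nearer to them than to Ctrl 1. HBA1 and HBA2 share more of their 50-base windows (81.6%) than HBG1 and HBG2 do (50.1%). How reads that fit both copies were counted is not stated, so the level of alpha-like against beta-like counts is uncertain.

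Per transcript length, in RPKM (CPM divided by transcript length in kilobases), the order of the genes in Ctrl was HBG2 (10678), HBG1 (5346), HBE1 (2233), HBA1 (793), HBA2 (627), HBB (72.0), HBQ1 (24.8), HBZ (14), HBD (8.64) and HBM (0.516). In that order HBA1 and HBA2, and HBQ1 and HBZ, overlapped between libraries, and the other neighbours did not. The values depend on the transcript chosen, which had 779 bases for HBG1 and 614 for HBG2. In mean Ctrl CPM HBG2 and HBG1 were nearer each other, at 6556 and 4165. In the knockdown libraries the mean RPKM levels were HBG2 (6663), HBG1 (2942), HBE1 (1604), HBA1 (677), HBA2 (554), HBB (72.1), HBQ1 (27.3), HBD (13.5), HBZ (6.97) and HBM (0.281), with no overlap between neighbours. HBD and HBZ thus changed places, and the rest of the order was the same in both groups. Embryonic and fetal genes led the beta cluster in both groups, whereas in the alpha cluster HBA1 and HBA2 led the embryonic HBZ. The places of the gamma and alpha genes in this order also depend on how reads shared between copies were counted.

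The other rows of the beta cluster lay on both sides: HBBP1 was higher and BGLT3 lower in both knockdown libraries, and neither was called. HBBP1, a transcribed pseudogene between HBG1 and HBD (5241105 to 5243537), had 3595 and 2807 counts in Ctrl and 5171 and 4319 after AFF4 knockdown. In CPM it stood at 192 and 188 against 286 and 257, apart on the same side as HBD. The log2 fold change of HBBP1 was 0.51 ± 0.14 (SE; unadjusted p = 0.00683), and it was not called (edgeR adjusted p = 0.147). The annotated HBD gene (5232678 to 5243657) spans all of HBBP1 on the same strand, and the sources used here do not say how reads in that overlap were assigned. BGLT3, a non-coding RNA gene beside the gamma genes, had 51 and 33 counts in the Ctrl libraries against 20 and 33, or 2.73 and 2.21 CPM against 1.11 and 1.96, apart on the same side as the gamma genes (log2 fold change -0.70 ± 0.34, SE; edgeR adjusted p = 0.409).

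Within 500 kb of the beta cluster, 44 other genes were in the table, and 5 had enough counts to be tested, HBBP1 and BGLT3 among them. TRIM6, a tripartite-motif ubiquitin ligase gene (chromosome 11, 5596109 to 5612958), was called higher, with 37 and 22 counts in Ctrl and 142 and 127 after AFF4 knockdown. Its log2 fold change was 2.14 ± 0.25 (SE; edgeR adjusted p = 0.0342), and the call was lost with the filter at 5 CPM (0.0573). TRIM5 (0.57, adjusted p = 0.198) and TRIM22 (0.45, adjusted p = 0.349), the remaining tested neighbours, were not called by edgeR. Over all tested genes 0.346% were called higher by edgeR. DESeq2 and limma-voom also called TRIM6 alone of the 5, against 1.39% and 0.391% of all tested genes called higher. Of the 5, HBBP1, TRIM6 and TRIM5 were higher at an unadjusted p under 0.05 in edgeR and 0 were lower. Those shares over all tested genes were 6.79% and 8.19%. Around the alpha cluster, 24 of 34 genes were tested and none was called by edgeR, DESeq2 or limma-voom. Their log2 fold changes ran from -1.04 to 0.54, with a median of 0.03. At an unadjusted p under 0.05 in edgeR, 1 was lower, against 8.19% of all tested genes. NPRL3, whose introns hold the alpha-globin enhancers, overlapped between groups, with 50.3 and 78.8 CPM against 61.9 and 69.6.

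Transcripts of the known globin regulators were measured from a list of 25 repressors of the gamma genes and a second list. The second list held 26 activators, binding factors and other regulators. Of the repressors, 24 were tested and none was called by edgeR: 12 were above 0 and 12 below on the log2 scale, the median being -0.01. At an unadjusted p under 0.05 in edgeR, 1 was higher and 0 lower, against 6.79% and 8.19% of all tested genes. Of the second list, 26 were tested and none was called by edgeR, with 13 positive, 13 negative and a median of 0.00. Its members do not all act on the globin genes in the same direction, so these signs have no shared meaning. At an unadjusted p under 0.05 in edgeR, 2 of them were higher and 2 lower. With DESeq2, 1 regulator (LMO2) was called higher and 0 lower, against 1.39% and 1.64% of all tested genes, and limma-voom called none.

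BCL11A, the main silencer of the gamma genes, had 64 and 65 counts in Ctrl and 113 and 105 after AFF4 knockdown. Both knockdown libraries were above both Ctrl libraries, with a log2 fold change of 0.69 ± 0.23 (SE), and it was not called (edgeR adjusted p = 0.231). ZBTB7A, a second gamma repressor, overlapped between groups at -0.38 ± 0.25 (SE; adjusted p = 0.549). MYB, an upstream activator of the repressors, had a log2 fold change of 0.31 ± 0.15 (SE; adjusted p = 0.404) and MBD2, a methyl-CpG reader that recruits the NuRD complex, -0.46 ± 0.21 (SE; adjusted p = 0.387). KLF1, which activates HBB and BCL11A, and GATA1, the erythroid master factor, were at 0.20 ± 0.24 (SE; adjusted p = 0.788) and 0.01 ± 0.23 (SE; adjusted p = 0.990). LIN28B, an RNA-binding protein of fetal erythroid cells, was at 0.37 ± 0.17 (SE; adjusted p = 0.363).

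LMO2 and LDB1, which bridge the control regions to the globin promoters, had the smallest unadjusted p in the second list of regulators. LMO2 had 2768 and 2065 counts in Ctrl and 4359 and 3765 after AFF4 knockdown, and its log2 change was 0.70 ± 0.14 (SE), with an edgeR adjusted p of 0.0808. LDB1 was at 0.52 ± 0.16 (SE; adjusted p = 0.203). NFYA, a subunit of the factor that binds CCAAT boxes, was at -0.39 ± 0.15 (SE; adjusted p = 0.292). All 3 had separated groups and none was called by edgeR. They were picked by their small p, so that separation is no separate result. Of the 26 genes of that list, 5 were separated on the higher side and 5 on the lower side. Over all tested genes these shares were 23.1% and 23%.

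Erythroid identity was measured with 12 marker genes. Their summed level was 3115 and 2961 CPM in the Ctrl libraries and 3451 and 3411 CPM in the knockdown libraries, and the median log2 fold change of the 11 tested was 0.15. At an unadjusted p under 0.05 in edgeR, 4 were higher (GYPB, EPOR, TFRC and SLC4A1) and 0 lower. Over all tested genes these shares were 6.79% and 8.19%, and 0.346% were called higher. SLC4A1, the red-cell anion exchanger, was the 1 marker called higher, with 9 and 7 counts against 43 and 44 (edgeR adjusted p = 0.0394, and 0.0576 without knockdown replicate 2). AHSP, the chaperone of free alpha chains, had 1 to 4 counts in every library and was not tested. The summed erythroid markers were thus slightly higher in both knockdown libraries, where the summed beta-like globins were lower. The part of cell composition in the globin values was not tested.

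The 10 megakaryocyte markers, a lineage HEL is also known to express, summed to 1296 and 2115 CPM in the Ctrl libraries and to 1421 and 1546 in the knockdown libraries. Most of that came from ITGA2B, a transcript of 61.1% GC, at 881 and 1545 CPM in Ctrl and 1030 and 1145 in the knockdown. Like the alpha-like globins, the summed megakaryocyte markers were highest in Ctrl 2, but TUBB1 and PPBP were highest in Ctrl 1 and GP6 in knockdown 2. Of these markers 9 were tested, none was called by edgeR, DESeq2 or limma-voom, and GP1BB was at 0. At an unadjusted p under 0.05 in edgeR, 1 was lower, against 8.19% of all tested genes. The 9 monocyte and granulocyte markers summed to 51.1 to 61.5 CPM, the 7 lymphocyte markers to 7.97 to 14.4 and the 6 stromal markers to 2.71 to 5.15. None of these was called by edgeR. DESeq2 called 1 lymphocyte marker higher, as it did 1.39% of all tested genes. The same marker was higher at an unadjusted p under 0.05 in edgeR, against 6.79% of all tested genes. At 0 in every library were 1 of the 9 (FCN1), 2 of the 7 (CD3D, CD3E) and 4 of the 6 (COL1A2, COL3A1, DCN, LUM). Most of each sum came from 1 gene: LYZ at 48.6 to 59.9 CPM, IL7R at 4.69 to 11.5 CPM and PDGFRB at 2.65 to 4.98 CPM. IL7R was the lymphocyte marker with the low p, at 5.89 and 4.69 CPM in Ctrl against 10.2 and 11.5 (edgeR adjusted p = 0.0942).

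Outside the clusters, the genes whose pattern over the 4 libraries was most like that of HBG1 and HBG2 summed were THBS1, MAGED1, VEGFA, CLU and PIM2. Likeness was the root mean square difference of centred log2 CPM among 4781 genes of at least 50 CPM on average, and it was 0.0275 for THBS1 and 0.0568 for PIM2, the first and last of the 5. Their log2 fold changes were -0.70, -0.69, -0.67, -0.70 and -0.66. These genes were picked by that likeness in the same libraries, so their fold changes and order of libraries follow from the choice. None passed the edgeR threshold (adjusted p from 0.0808 to 0.112). DESeq2 called all 5 lower, as it did 1.64% of all tested genes, and that too is no separate evidence. THBS1, for example, had 105 and 119 CPM in Ctrl and 69.1 and 69.0 after AFF4 knockdown, the same order of libraries as the gamma genes.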

How the data were processed

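Poly(A) RNA-seq of HEL cells was analysed, 2 libraries per group; the extract protocol in the labels describes dUTP-marked second strands. The deposited values are whole-number counts per gene symbol, one column per library, and 0 other value columns were present. The submitters' processing notes list fastp 0.13.1, HISAT2 2.1.0, featureCounts 1.6.1 and build hg38. The sources used here do not give the annotation, strand setting or treatment of multi-mapped reads. Column names matched the sample titles.

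From the deposited counts, genes were kept with filterByExpr (minimum count 10, minimum total 15), scaled by TMM and tested with edgeR 4.0.16 (quasi-likelihood, group only, Benjamini-Hochberg adjustment, R 4.3.3). DESeq2 1.42.0, limma 3.58.1 (voom), other scalings and filters, a replicate block, a lowess GC correction (span 0.4) and leaving out each library were alternatives. Differences between 2 libraries use log2 of CPM + 0.1, and likeness uses log2 CPM with a prior count of 2. RPKM, GC content and coordinates use GENCODE v29 (GRCh38, the build called hg38). For RPKM, GC content and shared windows, each gene was given its longest transcript with a RefSeq match, or its longest transcript without one. By name, 25861 symbols matched and 2242 did not, and 97% of tested genes had a GC value. Promoter sequence came from RefSeq (GRCh38.p14), where 2 of the 10 genes, HBD and HBM, had an entry. Fits were tested on simulated data.

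Depth was 14903878 to 19129008 counts per library. The members and lists were chosen with earlier results of these data known. Named genes were the globin genes, AFF4, called regulators and flanking genes or otherwise the 3 regulators per list with the smallest p, 6 fixed regulators, other globin rows with at least 10 counts and the 5 most similar genes. TRIM5, TRIM22, NPRL3 and the markers were named after their values were seen.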

Additional observations from a re-analysis of the deposited data

How the results depend on the processing

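The globin genes called lower numbered 1 in the edgeR analysis of the report, 4 with no filter on low counts, 0 with the filter at 5 CPM, 2 with DESeq2, 4 with GC correction and 0 to 6 with 1 library left out. Those called higher numbered 0, 1 with GC correction and 0 to 4 with 1 library left out. Across the table, lower calls went from 40 to 406 (no filter), 4 (5 CPM), 222 (DESeq2), 2051 (GC correction) and 11 to 3315 (1 library left out), and higher calls from 47 to 328, 1, 188, 2117 and 35 to 3407. Regulators called lower went from 0 to 10 with GC correction and 0 to 16 with 1 library left out. Regulators called higher went from 0 to 1 (no filter), 1 (DESeq2), 9 (GC correction) and 0 to 18. As shares of all tested genes, lower calls were 2.15% (no filter, 18862 tested), 0.037% (5 CPM, 10813 tested), 1.64% (DESeq2) and 15.1% (GC correction). Higher calls in the same order were 1.74%, 0.00925%, 1.39% and 15.6%. Where Ctrl 1 or Ctrl 2 was left out, the lone Ctrl library was assumed to vary like the knockdown libraries, whose spread is small. Numbers of calls from those fits therefore cannot be set beside the others. The AFF4 value of -2.10 had an edgeR adjusted p of 0.0552 at 5 CPM; the cause was not tested.

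HBB, near 0, changed sign with RLE scaling (-0.0013), 5 CPM (-0.037), DESeq2 (-0.0013) and GC correction (-0.0086). With 1 library left out, the log2 fold change ran from -0.17 to 0.20 for HBB, -0.66 to 0.39 for HBA1, -0.63 to 0.49 for HBA2, -0.29 to 0.75 for HBQ1, -0.12 to 0.62 for KLF1 and -0.31 to 0.42 for GATA1, the lowest without Ctrl 1 and the highest without Ctrl 2. GATA1 was -0.032 at 5 CPM. HBE1, HBZ and HBD kept their direction under 15 alternatives, and HBG1 and HBG2 under the 14 that do not sum them.

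The replicate numbers are only shared numbers: with 2 pairs, the Ctrl and knockdown replicate differences correlated at 0.385 over 13572 genes, which does not establish a pairing. With the replicate block, 3 globin genes were called lower, 480 genes lower, 408 higher and 2 regulators higher. With the replicate block and GC correction these were 4, 2648, 2770 and 10, with 13 regulators lower, 1 globin gene higher and HBB at -0.0036.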
